A study of Sus scrofa with 74 samples.

Results

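The circadian clock genes ARNTL, CLOCK, NPAS2, PER1, PER2, PER3, CRY1, CRY2, NR1D1 and NR1D2 were looked up among the probe sets that the array annotation gives to a single gene. Only 3 of the 10 genes had such a probe set, 4 probe sets in all of the 23999 on the array that are not controls and the 10069 that carry 1 gene symbol. ARNTL and CRY2 were read by 1 probe set each, and PER1 by a bright and a dim one. CLOCK, NPAS2, PER2, PER3, CRY1, NR1D1 and NR1D2 were not analysed here, so that 1 activator stands beside 2 repressors. The samples were M. longissimus dorsi, the long back muscle, of 74 animals from the F2 of a Duroc by Pietrain cross that was free of the RYR1 stress mutation. Each was slaughtered at a mean end weight of 110 kg and measured once on the Porcine Genome Array of Affymetrix. The tissue was snap frozen right after death, and the animals belong to full-sib families that the labels do not name. Label numbers run from DRIP 1 to DRIP 33 for 24 animals, called the low block here, and from DRIP 60 to DRIP 114 for 50 animals, the high block. What these numbers stand for is not stated, and hour of slaughter, feeding, sex and date are not in the labels, so that no clock time can be put on any animal.

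The mammalian clock is a feedback loop of transcription. ARNTL (BMAL1) pairs with CLOCK or NPAS2 and, through E-box motifs, switches on the Per and Cry genes, whose proteins then shut the pair off, while NR1D1 and NR1D2 repress and RORA activates the ARNTL gene. In a tissue sampled over the day, ARNTL therefore peaks when PER genes and the output factor DBP are low. In skeletal muscle the clock is known to time genes of fuel use.

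The arrays stood apart by block before any gene was compared. The trimmed mean of the deposited signal ran from 50.3 to 123 in the low block and from 84.7 to 183 in the high block, and the log2 difference between 3' and 5' probe sets of control transcripts was 0.37 ± 0.06 (SD, n = 24) and 0.47 ± 0.08 (SD, n = 50). All arrays were therefore brought to the same trimmed mean, 500, and the log2 of the scaled signal is the level given throughout. The skeletal muscle markers were bright in every animal, as the tissue label says, with a mean level between 14.8 and 16.2 in the low block and between 14.9 and 15.9 in the high block. Smooth muscle markers were higher in the low block, with a mean level of 12.01 ± 0.38 (SD, n = 24) against 11.45 ± 0.32 (SD, n = 50). Erythroid markers, of which AHSP was dim, had 7.81 ± 0.64 against 7.13 ± 0.97, and fibroblast markers 10.67 ± 0.37 against 10.45 ± 0.32. Adipocyte markers lay the other way, at 9.89 ± 0.96 against 10.25 ± 0.72, as did nerve and Schwann cell markers, at 8.34 ± 0.33 against 8.60 ± 0.35. These block differences of list means were not tested. As these are whole muscle samples, fewer cells of a type and less RNA per cell cannot be told apart.

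Of the 3 members' kept probe sets, that of ARNTL varied most between animals. Its level in the low block was 5.57 at the lowest, 7.14 at the median and 8.91 at the highest, and in the high block 6.79, 7.81 and 9.58. The linear signal thus spanned 10.1-fold among 24 animals and 6.95-fold among 50, and the SD of 0.84 and 0.66 exceeded that of 94.0% and 93.6% of the kept probe sets, those bright enough to enter the tests. ARNTL was also the dimmest of the 3, brighter than 58.6% of the probe sets, against 92.7% for CRY2 and 97.1% for PER1. The dim PER1 probe set had an SD above that of 95.7% and 99.2% of kept probe sets. The part of brightness in the spread of ARNTL was not tested. The blocks overlapped, but 9 of the 24 low-block animals lay below every animal of the high block.

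CRY2, a cryptochrome that inhibits the ARNTL and CLOCK pair, was far steadier. Its level ran from 10.01 through a median of 10.71 to 11.48 in the low block and from 10.66 through 11.02 to 11.77 in the high block, and its SD of 0.40 and 0.27 was above that of 49.0% and 21.2% of kept probe sets. There, too, 10 low-block animals fell below the whole high block. PER1, the period gene that also answers to glucocorticoids and other acute signals, ran from 11.60 through 12.23 to 13.18 and from 11.53 through 12.39 to 13.28, so that its blocks overlapped almost in full. Its SD of 0.38 and 0.37 was near the middle of the kept probe sets, above 43.6% and 52.2% of them.

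**Figure D1:**
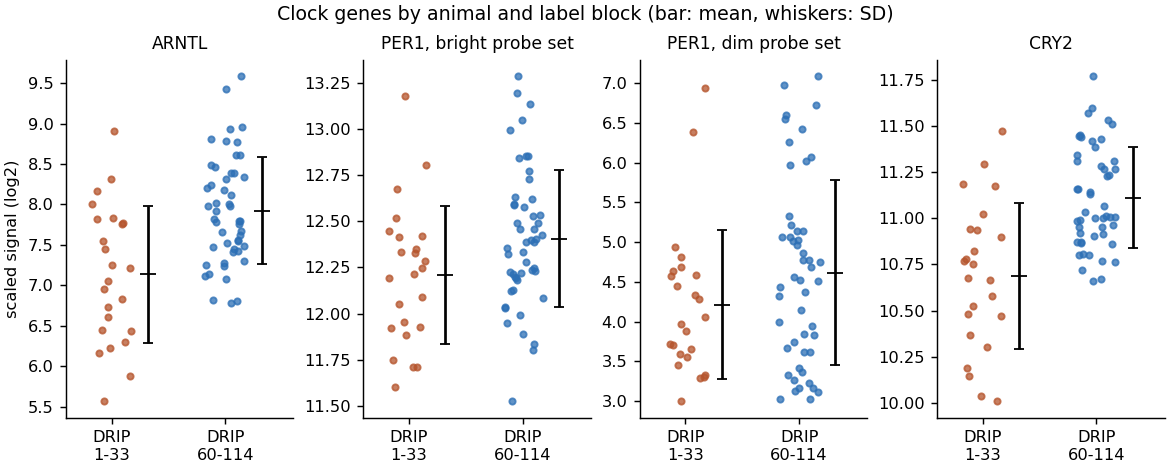
Scaled log2 signal of the 4 clock gene probe sets, 1 point per animal, in the 24 animals of DRIP 1-33 and the 50 of DRIP 60-114, with the mean (bar) and SD (whiskers) at the right of each column. In the low block the ARNTL signal spans 10.1-fold and the CRY2 signal 2.77-fold, and both lie lower there than in the high block; each panel has its own axis, which does not start at 0.

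The dim PER1 probe set did not follow the bright one. Its level ran from 2.997 to 6.95 in the low block and from 3.03 to 7.09 in the high block, and its brightness exceeded that of only 14.1% of the probe sets, so it was not kept. Pearson's r between the PER1 probe sets was -0.191 in the low block (permutation p = 0.37; Spearman's rho = -0.134, p = 0.53) and -0.127 in the high block (permutation p = 0.38; rho = -0.0244, p = 0.87). PER1 values below come from the bright probe set alone, and no second probe set checked them, nor those of ARNTL and CRY2.

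ARNTL and CRY2 were lower in the low block. In a limma fit over all kept probe sets, ARNTL was lower there by a log2 difference of -0.79 (SE 0.18, adjusted p = 7.67e-05), with block means of 7.14 ± 0.84 (SD, n = 24) and 7.92 ± 0.66 (SD, n = 50). Probe sets were kept by their median over all animals. The linear median of ARNTL was 141 in the low block, below the lowest kept median of 156, and 225 in the high block. ARNTL was thus kept through the block where it was brighter, which favours a difference in this direction. CRY2 differed by -0.42 (SE 0.08, adjusted p = 2.95e-06), from means of 10.69 ± 0.40 and 11.11 ± 0.27. For PER1 the difference was -0.20 (SE 0.09) and did not pass, at an adjusted p = 0.0536. With 2 of 3 kept member probe sets called lower, the background was that 36.1% of all kept probe sets were called lower in the low block and 25.5% higher. The median difference of all kept probe sets was -0.06 after scaling, but -0.65 in the values as deposited, where 93.6% of kept probe sets lay lower in the low block and 83.7% were called lower. Quantile normalization put PER1 past the threshold (difference -0.26, adjusted p = 0.0115).

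Of the other genes of the loop, CIPC, USP2 and a BHLHE40 probe set were lower in the low block. CIPC, an inhibitor of CLOCK, was lower in the low block by -0.89 (SE 0.08, adjusted p = 1.88e-16), with block means of 10.83 and 11.72. USP2, a deubiquitinase driven through E-boxes, was lower by -0.50 (SE 0.11, adjusted p = 0.000117). The E-box repressor BHLHE40 was lower by -1.14 (SE 0.14, adjusted p = 3.41e-11) in its brighter probe set, whereas its dimmer one gave 0.13 (adjusted p = 0.407). The differences of DBP (0.32, adjusted p = 0.077), NFIL3 (-0.38, adjusted p = 0.104) and RORA (-0.18, adjusted p = 0.175) did not pass. Since block, array signal and the 3' to 5' difference moved together, their parts in these differences cannot be told apart, and all relations below were taken within blocks.

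Opposite phases of activator and repressor were looked for by fitting every kept probe set on the ARNTL level with the block in the model. The partial r is the correlation over 74 animals once block means are removed. PER1 leaned the opposite way from ARNTL, with a partial r of -0.264 and a slope of -0.14 (SE 0.06) log2 units of PER1 per log2 unit of ARNTL, but did not pass (adjusted p = 0.31). CRY2 leaned the same way as ARNTL, with a partial r of 0.223 and a slope of 0.10 (SE 0.05), and did not pass either (adjusted p = 0.438). Neither of the 2 pairs of activator and repressor was thus called, while 0.402% of the 11452 probe sets tested were called rising with ARNTL and 0.463% falling. In the values as deposited, and also with the block left out of the model, CRY2 passed as rising with ARNTL.

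Within the low block Pearson's r of ARNTL and PER1 was -0.487 (permutation p = 0.016, n = 24; Spearman's rho = -0.486, p = 0.017), and -0.596 without the 2 animals farthest from the median of ARNTL. In the high block r was -0.131 (permutation p = 0.36, n = 50; rho = -0.0702, p = 0.63). The difference between the slopes was not called, with an adjusted p = 0.933 for PER1 in the test of the product of block and ARNTL, in which 0.0% of probe sets passed (limma, with 499 of 11452 at an unadjusted p under 0.05). For ARNTL and CRY2, r was 0.257 (permutation p = 0.22; rho = 0.278, p = 0.19) in the low block and 0.195 (permutation p = 0.17; rho = 0.0929, p = 0.52) in the high block, where it fell to 0.0308 without the 2 farthest animals. These p values are raw, from 27 pairs of probe sets computed in each block, and treat siblings as independent animals.

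The D-box factor DBP, a direct target of ARNTL and CLOCK whose RNA swings widely over the day, moved opposite to ARNTL in both blocks. DBP ran from 8.36 through a median of 10.24 to 11.17 in the low block and from 8.64 through 9.82 to 11.27 in the high block, with an SD above that of 91.9% and 92.0% of kept probe sets. It fell with ARNTL at a slope of -0.56 (SE 0.09) and a partial r of -0.604 (adjusted p = 2.06e-05), the most negative partial r of all 11452 probe sets. Within the blocks r was -0.679 (permutation p = 0.00024; rho = -0.692, p = 0.00027) and -0.550 (permutation p = 2e-05; rho = -0.553, p = 4e-05), and without the 2 farthest animals -0.635 and -0.507. Adding the array-wide principal component or the 3' to 5' difference to the model left it at -0.613 and -0.583.

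Of the animals at the extremes of each block, some showed this and others did not. DRIP 22, with the highest ARNTL of the low block at 8.91, had a DBP of 8.85, which ranked 23 of 24. DRIP 82, with the highest ARNTL of the high block at 9.58, ranked 45 of 50 in DBP at 9.07. The lowest ARNTL of the high block, 6.79 in DRIP 92, went with a DBP of 10.48 at rank 9 and a PER1 of 13.05 at rank 4. The lowest ARNTL of all, 5.57 in DRIP 14, went with a DBP of 10.57 at rank 10 and a PER1 of 11.96 at rank 17, so that the members were not ordered alike in each animal. The highest DBP of each block, 11.17 in DRIP 29 and 11.27 in DRIP 64, went with an ARNTL of 7.76 at rank 8 of 24 and of 8.46 at rank 11 of 50, both above the block's median.

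**Figure D2:**
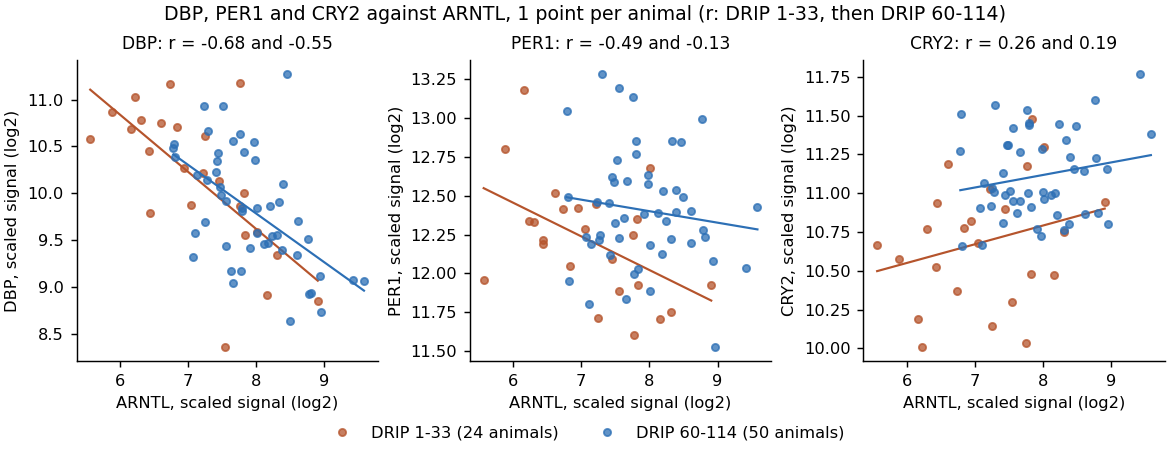
Scaled log2 signal of DBP, PER1 and CRY2 (vertical axes) against ARNTL (horizontal axes), 1 point per animal, with a least-squares line per label block. DBP falls along ARNTL in both blocks (r = -0.679 and -0.550), with looser clouds for PER1 (r = -0.487 and -0.131) and CRY2 (r = 0.257 and 0.195).

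Of the other genes of the loop, only CIPC was called rising with ARNTL. It rose with ARNTL at a slope of 0.20 (SE 0.05) and a partial r of 0.459 (adjusted p = 0.013), with r of 0.592 and 0.368 by block. RORA, the nuclear receptor that activates ARNTL, had a positive partial r of 0.379 but an adjusted p = 0.0673, and r of 0.409 and 0.359. NFIL3, which represses through the D-box that DBP activates, had a partial r of 0.197 (adjusted p = 0.509). USP2 had 0.0752 and the BHLHE40 probe sets 0.184 and -0.053, none of them called. Of the 6 loop genes outside the members, 1 was called rising and 1, DBP, falling.

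Among probe sets with a gene symbol, those rising with ARNTL most closely were TMEM140 (partial r 0.659, adjusted p = 7.99e-07), UCP3, ABHD4, a lipase of N-acyl phospholipids (0.561, adjusted p = 0.000174), TXLNG (0.519, adjusted p = 0.00183) and PNISR (0.468, adjusted p = 0.0119). UCP3, a carrier of the inner mitochondrial membrane that muscle raises in fasting, had 2 probe sets with partial r of 0.584 and 0.568 and slopes of 0.82 (SE 0.13) and 0.65 (SE 0.11). Its level in the first of these ran from 7.11 to 12.41 in the low block and from 8.33 to 12.93 in the high block.

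The named genes falling with ARNTL most closely, after DBP, were JARID2, a partner of the Polycomb complex (partial r -0.517, adjusted p = 0.00202), the NADPH-forming isocitrate dehydrogenase IDH1 (-0.515, adjusted p = 0.00183), the stearoyl-CoA desaturase SCD (-0.514, adjusted p = 0.00194) and the cysteine dioxygenase CDO1 (-0.510, adjusted p = 0.00194). The next 2 named genes in that order, singled out after their values were seen, were the fatty acid synthase FASN (-0.496, adjusted p = 0.00377) and the elongase ELOVL6 (-0.488, adjusted p = 0.00461). SCD, FASN and ELOVL6 all serve the making of fatty acids, and each ranged widely between animals, FASN from 7.92 to 14.02 in the low block and from 7.80 to 13.02 in the high block. Fat cells hold much of these enzymes. The adipocyte markers had a mean level between 8.21 and 12.02 in the low block and between 8.19 and 12.02 in the high block, with LEP below the kept probe sets. None of the 3 kept adipocyte genes was called with ARNTL, at partial r of -0.243 for ADIPOQ, -0.228 for FABP4 and -0.176 and 0.072 for LPL. ARNTL correlated with the mean of these markers at r of -0.155 and -0.307 in the blocks, and the part of fat cells in these relations was not tested.

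**Figure D3:**
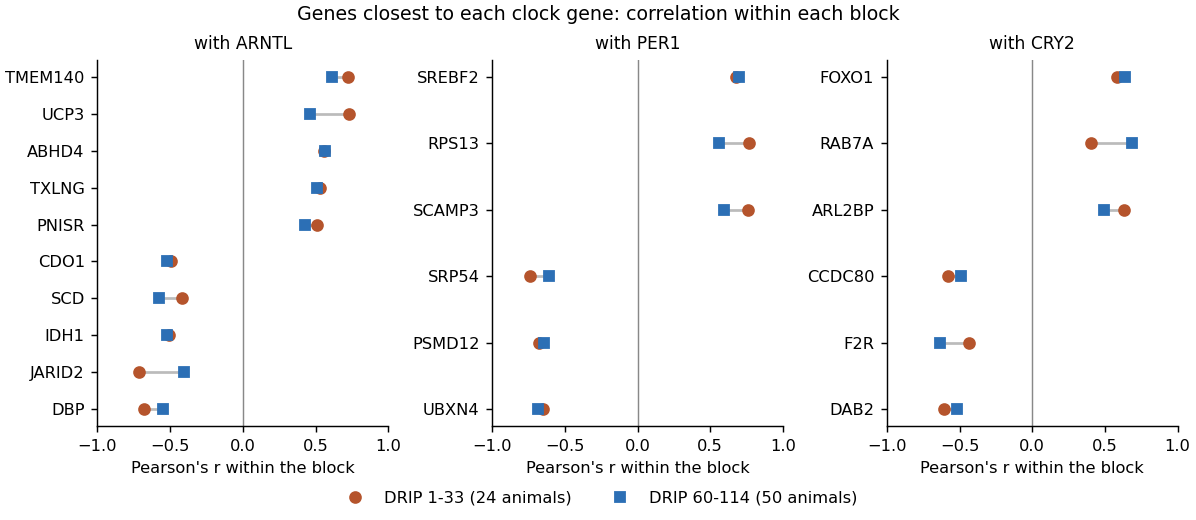
Pearson's r within the low block (circles, 24 animals) and the high block (squares, 50 animals) for the genes with a symbol of largest positive and negative partial r with ARNTL (5 each), PER1 and CRY2 (3 each). All lie on the same side of 0 in both blocks, which the choice by the pooled value favours; DBP has -0.679 and -0.550 with ARNTL.

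Among 9 kept genes that the muscle clock is known to drive, UCP3 and FBXO32 were called rising with ARNTL and none falling, where 0.402% of all probe sets were called rising and 0.463% falling, with a median partial r of 0.215 over 16 probe sets against 0.00247 over all. FBXO32, a ubiquitin ligase of muscle wasting, passed in 1 of its 2 probe sets (partial r 0.395, adjusted p = 0.0483, and 0.353, adjusted p = 0.0952). PDK4, the kinase that closes pyruvate dehydrogenase, had 0.319 and 0.282, LPIN1 0.277 and 0.201, and neither passed. Of 11 kept glucocorticoid targets, FKBP5, a chaperone of the glucocorticoid receptor, was called rising in 1 of 2 probe sets (0.439, adjusted p = 0.0163, and 0.334, adjusted p = 0.122). The median over the 17 probe sets of these targets was 0.144. None of 11 kept immediate early genes passed, and JUN had the most negative value at -0.341. Of the endothelial markers 1 of 6 rose, TEK with a partial r of 0.456 (adjusted p = 0.0145) in its kept probe set, and the median of that list was 0.0627. Dimmer TEK probe sets that were not kept gave 0.211 and 0.123 and did not pass among all probe sets.

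PER1 differed from ARNTL in that a large part of the array moved with it. In the fit on PER1, 20.7% of 11452 probe sets were called rising and 20.6% falling, and the median size of the partial r was 0.231, against 0.101 for ARNTL and 0.132 for CRY2. PER1 followed the first principal component within blocks, which held 15.9% of the variance, at r of 0.696 and 0.504, while the array signal as deposited ran the other way at -0.563 and -0.464. The skeletal muscle markers moved along with PER1 as well, at r of 0.584 and 0.365 with their mean, and 6 of 7 of them were called rising. With that component added to the model, 514 probe sets were called in place of 4722, and none of the 6 muscle markers stayed called. What array-wide shift the component stands for was not tested.

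ARNTL missed the threshold in the fit on PER1 as well (partial r -0.264, adjusted p = 0.0502, and -0.242, adjusted p = 0.215, with the component). CRY2 rose with PER1 at a partial r of 0.271 (adjusted p = 0.0476), and at 0.399 (adjusted p = 0.0239) with the component, though in the fit on CRY2 the same pair did not pass (adjusted p = 0.117). In the high block r was 0.534 (permutation p = 9e-05; rho = 0.511, p = 0.00027), and 0.475 without the 2 farthest animals. In the low block r was -0.103 (permutation p = 0.63; rho = 0.00783, p = 0.97). The difference of the slopes was not called, with an adjusted p = 0.168 in the fit on PER1, where 2.0% of probe sets were, and 0.117 in the fit on CRY2, where 0.0175% were. Those were 2 probe sets, 1 of CLDND1 and 1 without a gene symbol here.

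DBP rose with PER1 in both blocks, at r of 0.481 (permutation p = 0.017; rho = 0.519, p = 0.0098) and 0.498 (permutation p = 0.00029; rho = 0.486, p = 0.00051), with a slope of 0.88 (SE 0.18) and a partial r of 0.490 (adjusted p = 9.7e-05). With the component it was 0.344 and just missed the threshold (adjusted p = 0.0532). USP2 rose with PER1 at a partial r of 0.439 (adjusted p = 0.000576), from r of 0.612 in the high block (permutation p = 2e-05; rho = 0.570, p = 4e-05) and 0.0159 in the low block (permutation p = 0.94; rho = 0.0513, p = 0.81), and with the component it was 0.391 (adjusted p = 0.0257). RORA fell with PER1 at -0.288 (adjusted p = 0.0316), which turned to 0.0704 with the component, and its slope on PER1 differed between the blocks, at r of -0.616 and -0.0209 (adjusted p = 0.0254). CIPC gave r of -0.632 in the low block and 0.0782 in the high block, a difference that was not called (adjusted p = 0.0632).

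Among probe sets with a gene symbol, the closest to PER1 were SREBF2, the transcription factor of sterol synthesis (partial r 0.690, adjusted p = 4.7e-08), the ribosomal protein gene RPS13 (0.636) and SCAMP3 (0.636) on the rising side, and UBXN4 (-0.670, adjusted p = 2.89e-07), the proteasome subunit PSMD12 (-0.649) and SRP54 of the signal recognition particle (-0.649) on the falling side. With the component SREBF2 was at 0.519 (adjusted p = 0.00405) and UBXN4 at -0.423 (adjusted p = 0.0224). RPS13 (0.379), SCAMP3 (0.468) and PSMD12 (-0.396) stayed past the threshold with it, whereas SRP54 did not (-0.371, adjusted p = 0.0542). Of the 11 kept immediate early genes, CYR61 (0.388), IER5 (0.284), JUN (0.392) and ZFP36 (0.379) were called rising with PER1 and none falling, with a median of 0.143 against 0.0517 over all. With the component none of these 4 passed, at 0.267 for CYR61, 0.148 for IER5, 0.203 for JUN and 0.245 for ZFP36. Of the 11 glucocorticoid targets, 6 rose, among them CEBPB (0.458), KLF15 (0.404) and TSC22D3 (0.354), and KLF9 (-0.401) and PDK4 fell. The list as a whole did not lean upward, with a median of -0.0147 over its 17 probe sets, below the 0.0517 over all. With the component 2 of the 6 still passed, KLF15 (0.497, adjusted p = 0.00475) and CEBPB (0.367, adjusted p = 0.038), while TSC22D3 was at 0.341 (adjusted p = 0.0586) and neither KLF9 (-0.0114) nor PDK4 (-0.169 and -0.105) passed. Of 9 muscle clock outputs, ALAS1 and SLC2A4 rose with PER1 and NAMPT and PDK4 fell, with a median of 0.0112, and none passed with the component. The shares without the component are to be read beside the 20.7% and 20.6% of all probe sets called on each side. A gene was counted if any of its probe sets passed, and the 11 immediate early genes had 15, so that shares of genes can exceed shares of probe sets.

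**Figure D4:**
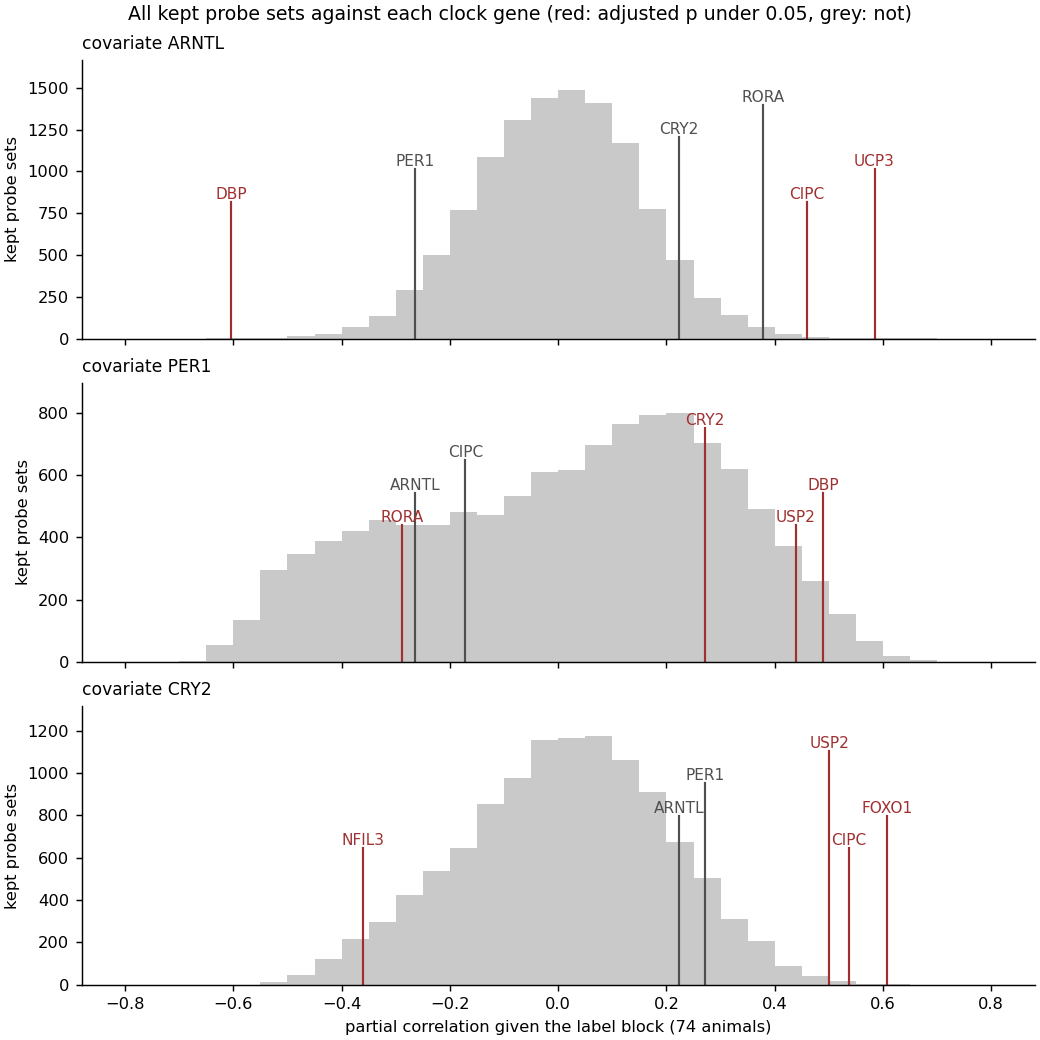
Histograms of the partial correlation, given the label block, of 11452 kept probe sets with ARNTL, PER1 and CRY2 (vertical axes count probe sets in bins of 0.05), with lines for clock and related genes in red where the adjusted p was under 0.05 and in grey where it was not. For ARNTL, DBP lies at the left end at -0.604; for PER1 the whole distribution is broad, so that 0.490 for DBP falls within its right shoulder; for genes with several probe sets the one of largest size is shown.

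CRY2 rose with CIPC and USP2 while NFIL3 fell as it rose. In its fit 3.8% of probe sets were called rising and 4.35% falling. CIPC rose with it at a slope of 0.54 (SE 0.10) and a partial r of 0.538 (adjusted p = 0.000842), with r of 0.576 (permutation p = 0.0028; rho = 0.517, p = 0.011) and 0.514 (permutation p = 0.00016; rho = 0.525, p = 0.00014). USP2 rose at 0.501 (adjusted p = 0.00135), with r of 0.580 and 0.480. NFIL3 fell at -0.361 (adjusted p = 0.0267), with r of -0.360 and -0.368, while DBP, at -0.145, and RORA, at 0.308, did not pass. Of the 6 loop genes outside the members, 2 were thus called rising and 1 falling with CRY2.

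The gene that rose most closely with CRY2 among those with a symbol was FOXO1, a transcription factor held down by insulin (partial r 0.607, adjusted p = 4.75e-05), at r of 0.583 and 0.640 and a slope of 0.75 (SE 0.12). It was followed by RAB7A, a GTPase of late endosomes (0.558), and ARL2BP (0.546). Of the 11 kept glucocorticoid targets, FOXO1, KLF15 (0.527, adjusted p = 0.000842), TSC22D3 (0.487), FKBP5 (0.480 and 0.341) and CEBPB (0.441) were called rising and none falling, with a median of 0.189 against 0.019 over all. Of 9 muscle clock outputs, UCP3 (0.460 and 0.432), the insulin-regulated glucose transporter SLC2A4 (0.499, in its only kept probe set) and FBXO32 rose and none fell. The median of that list was 0.218. Over all probe sets 3.8% were called rising with CRY2 and 4.35% falling. KLF15, a factor that glucocorticoids induce and that rises in fasting, ran in level from 9.42 to 11.00 in the low block and from 8.87 to 11.23 in the high block.

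The named genes falling with CRY2 most closely were DAB2, an adaptor of endocytosis (partial r -0.555, adjusted p = 0.000547), the thrombin receptor F2R (-0.543) and CCDC80, a matrix protein (-0.526). The fibroblast markers DCN (-0.361) and LUM (-0.417) were 2 of 4 kept markers of that list called, and CRY2 correlated with the mean of the list at r of -0.359 and -0.406. That mean ran from 10.09 to 11.41 in the low block and from 9.60 to 11.09 in the high block, and none of its 4 genes lay below the kept probe sets. The part of connective tissue in the relations of CRY2 was not tested. With the values as deposited F2R and CCDC80 turned to partial r of 0.0745 and 0.0335. The immediate early gene EGR1 fell with CRY2 in 2 of 3 probe sets (-0.430 and -0.421).

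No member was called as drifting along the label numbers within its block. A spline of the label number explained an R2 of 0.136 for ARNTL (adjusted p = 0.436), 0.0850 for PER1 (adjusted p = 0.668) and 0.0346 for CRY2 (adjusted p = 0.934), and 0.0810 for DBP (adjusted p = 0.682). Over all kept probe sets 0.437% were called. The spread of ARNTL and DBP between animals was thus not shown to follow the numbering.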

How the data were processed

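Total RNA of 74 animals was hybridized to 1 Affymetrix array each. The authors analysed the arrays with GCOS 1.1.1, global scaling to a target of 500, present calls and PLIER, and deposited linear intensities. Which algorithm gave the deposited intensity values, and a genome build, are not given in the sources used here. The table lists 24123 probe sets, of which 124 are controls, and 34 values are 0. Since the array means are not at the target, all were brought to the same trimmed mean, 500 (2% left out at each end), with a floor of 1 before log2. Controls aside, the brightest 11453 probe sets by median were kept for testing. Of the probe sets, 10069 carry a single symbol, 198 more than 1 and 13732 no symbol.

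Fits used limma 3.58.1 in R 4.3.3 (trend, robust, statmod 1.5.0) with Benjamini-Hochberg adjustment over all kept probe sets and a threshold of 0.05. The models held the label block alone, the block with the brightest probe set of ARNTL, PER1 or CRY2 as covariate, their product, or a natural spline of the label number with 2 and 4 degrees of freedom. Pairs of probe sets were tested within blocks by 100000 two-sided permutations (scipy 1.17.1, numpy 2.4.6). Simulated data had a random normal covariate in place of a gene's level, and independent normal noise. There 61 of 100 slopes of 0.5 SD and 100 of 100 of 1 SD were called, with 4 of 11253 genes without a slope. Arrays have no depth, and their number limits the precision.

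All 74 animals form a single group by the labels. Members and gene lists were chosen with earlier results of these data known. A listed gene was counted as called if any of its kept probe sets passed, while the shares over all are of probe sets. Family, sex, weight and slaughter date could not be fitted, so p values treat siblings as independent. Named were all members, the list genes called in the fit on ARNTL with up to 4 per list that were not, and the 5 (ARNTL) or 3 genes of largest positive and negative partial r. Alternatives were the values as deposited, quantile normalization, log2 after adding 16, all probe sets, each block alone, no block, the first principal component or the 3' to 5' difference as covariate, the second PER1 probe set, and, for pairs of probe sets, Spearman's rho and leaving out 2 animals.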

Additional observations from a re-analysis of the deposited data

Results flagged for a closer look

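The slope of RORA on PER1 differed between the label blocks by -1.06 (low minus high block, log2 units of RORA per log2 unit of PER1; SE 0.28), with an adjusted p = 0.0254 for the product of block and PER1 in limma. Pearson's r was -0.616 in the 24 animals of the low block (permutation p = 0.0014; Spearman's rho = -0.557, p = 0.0055) and -0.0209 in the 50 of the high block (permutation p = 0.89; rho = 0.0217, p = 0.88). Without the 2 animals farthest from the median of PER1, r was -0.523 and -0.023. Of all probe sets, 2.0% were called in the same test. PER1 correlated with the first principal component at r of 0.696 in the low block and 0.504 in the high block, and the part of this component in the difference was not tested.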

How the results depend on the processing

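No paired analysis was possible because the animals form 1 group without replicate numbers. Of 111 values recomputed for the questions asked, 75 were counted as unchanged. For single values this meant the same side of the threshold, with a change of direction counted only where either value passed it. For counts of probe sets it meant a change of limited size. Values as deposited moved the median slope of all probe sets to 0.11 on ARNTL, 0.13 on PER1 and 0.34 on CRY2, and the share of rising among called probe sets from 46.5% to 98.8%, from 50.1% to 100.0% and from 46.6% to 99.5%. The cause of the other changes was not tested.

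The block difference of PER1 passed as deposited (-0.78), after quantile normalization (-0.26) and in the permutation test (-0.20, permutation p = 0.036). The share of higher among probe sets called between the blocks was 41.4%, 2.51% as deposited and 50.5% after quantile normalization. Of ARNTL with CRY2, the partial r passed in both fits as deposited (0.372) and with the block left out (0.413). ARNTL in the fit on PER1 passed after quantile normalization (-0.293) and in the low block alone (-0.487). CRY2 in the fit on PER1 lost its call as deposited (0.304), among all probe sets (0.271) and with the 3' to 5' difference (0.268), and turned to -0.103 in the low block alone and -0.0641 on the dim PER1 probe set. PER1 in the fit on CRY2 passed as deposited (0.304), in the high block alone (0.534), without the block (0.352) and with the principal component (0.399).

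The number called on ARNTL was 99, but 3094 as deposited, 196 after quantile normalization, 0 in the low block alone (860 of 11452 at an unadjusted p under 0.05 in limma), 18 in the high block alone, 3199 without the block and 169 with the component. On PER1 it was 4722, but 479 as deposited, 2552 and 2933 in the low and high block alone, 514 with the component and 0 on the dim probe set (774 at an unadjusted p under 0.05). On CRY2 it was 933, but 7021 as deposited, 12 and 374 in the low and high block alone, 4757 without the block and 1563 with the component. Between the blocks 7049 were called, or 10712 among all probe sets, which tests more of them. Along the label numbers 50 were called, or 33 after quantile normalization.

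Of single genes, RORA on PER1 turned to 0.0704 with the component and 0.0377 on the dim probe set, RAB7A on CRY2 to -0.0328 without the block, and F2R and CCDC80 on CRY2 to 0.0745 and 0.0335 as deposited. DBP on ARNTL was called under every alternative except the low block alone (-0.679, adjusted p = 0.209 over all probe sets), with 24 animals, where 21 relations of single genes lost their call. ARNTL and CRY2 have no second probe set to use.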

Other observations

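The enzymes that mark clock proteins for turnover or protect them gave different counts in the 3 fits, as did all probe sets. The difference between the fits was not tested. None of the 9 kept genes of kinases, phosphatases and ubiquitin ligases of the clock was called with ARNTL. In that fit only 0.402% of all probe sets were called rising and 0.463% falling. With CRY2, the casein kinase CSNK1D rose in all 3 probe sets (partial r 0.396, 0.352 and 0.346), as did the deubiquitinase USP7 in both of its own (0.426 and 0.383), and none fell. The shares of all probe sets called with CRY2 were 3.8% rising and 4.35% falling. With PER1, CSNK1D (0.540, 0.479 and 0.390), CSNK2B (0.560) and HUWE1 (0.501 and 0.324) rose, whereas CSNK1A1, CSNK2A1, PPP1CB and PPP1CC fell, where 20.7% of all probe sets were called rising and 20.6% falling. CSNK2A1 was called in a probe set at -0.295 (adjusted p = 0.0466), but not in others at -0.264 (adjusted p = 0.0629) and 0.012 (adjusted p = 0.948). With the first principal component in the model, 1 CSNK1D probe set alone among these genes passed with PER1 (0.369, adjusted p = 0.0441). CSNK2B was then at 0.239, HUWE1 at 0.125 and 0.119, CSNK1A1 at -0.281 and -0.107, PPP1CB at -0.0708 and -0.0939 and PPP1CC at 0.0116 and 0.0399. The CSNK2A1 probe set that had been at -0.295 was at -0.061. Of the 4 kept cofactors, HDAC3 was called rising with PER1 in both probe sets (0.530 and 0.419), but in neither with the component (0.189, adjusted p = 0.402, and 0.116, adjusted p = 0.652), and none was called with ARNTL or CRY2.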
